A study of Homo sapiens with 6 samples.

Results

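The genes described here are those of the epidermal differentiation complex and the S100A family in HCCC9810 cells, a cholangiocarcinoma (CCA) line. The rule for members goes by symbol and uses no measured value, but it was chosen with earlier results of these data known. It takes every gene of the count table whose symbol begins with SPRR, LCE or S100A. To these it adds FLG, FLG2, HRNR, RPTN, TCHH, TCHHL1, CRNN, IVL and LORICRIN. This gave 53 of the 19470 genes in the table, of which 37 belonged to the differentiation complex and 16 to the S100A family. RNA was taken from wild type HCCC9810 cells after 24 h with isolinderalactone (ILL) at 20 μM or after 24 h with vehicle (DMSO), in 3 libraries per group. HCCC9810 is an established line, and it is the only line sequenced here. The labels do not say whether the 3 libraries of a group came from separate cultures, so p-values measure the spread between these libraries, which may be technical.

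In stratified epithelium, keratinocytes end their lives by replacing the plasma membrane with the cornified envelope, a sheet of proteins joined by transglutaminases. Involucrin (IVL), loricrin, the small proline-rich proteins (SPRR) and the late cornified envelope proteins (LCE) are its building blocks, whereas filaggrin (FLG), trichohyalin (TCHH) and the other S100 fused-type proteins carry an S100 domain in front of long repeats and bind or bundle keratin filaments. Most S100A genes lie in the same cluster on chromosome 1. They encode small calcium sensors with paired EF hands that act as dimers on target proteins such as annexins, and several are abundant in carcinoma cells of glandular origin.

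All 53 genes lay on chromosome 1 of GRCh38, between positions 151982915 (S100A10) and 153632039 (S100A1), a span of 1649 kb in the GENCODE v29 annotation. After genes with too few counts were removed, 22 of the 53 could be tested for a difference between ILL and control. These were 2 of the 7 fused-type genes, 7 of the 10 SPRR genes, 1 of the 18 LCE genes, IVL and 11 of the 16 S100A genes. The remaining 31 included 16 genes without a count in any library. The filter keeps a gene that is high in either group, so the 22 tested genes do not stand for all 53.

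FLG, TCHH and SPRR2G fell with ILL by more than 2-fold, and no tested member rose by more than 2-fold. In edgeR's quasi-likelihood test with Benjamini-Hochberg adjustment over 13066 genes, these 3 of the 22 tested members (13.6%) were differentially expressed genes (DEGs, at an adjusted p under 0.05 with a fold change above 2 or under 0.5), against 23.9% of all genes tested (12.5% in the upward and 11.4% in the downward direction). The share of DEGs among the members was therefore not above the background. At an unadjusted p under 0.05 with the same fold limit, 0 members were higher and 4 lower, and DESeq2 called 0 higher and 3 lower. By the adjusted p alone, 5 members rose and 10 fell, or 68.2% of the 22, against 73.1% of all genes tested (36.2% upward and 36.9% downward). In the text below, a gene is said to rise or fall where its adjusted p was under 0.05. The median log2 fold change was -0.24 over the tested members and -0.0012 over all genes tested. In bulk RNA of this kind, fewer cells that express a gene and less of its RNA per cell cannot be told apart.

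**Figure D1:**
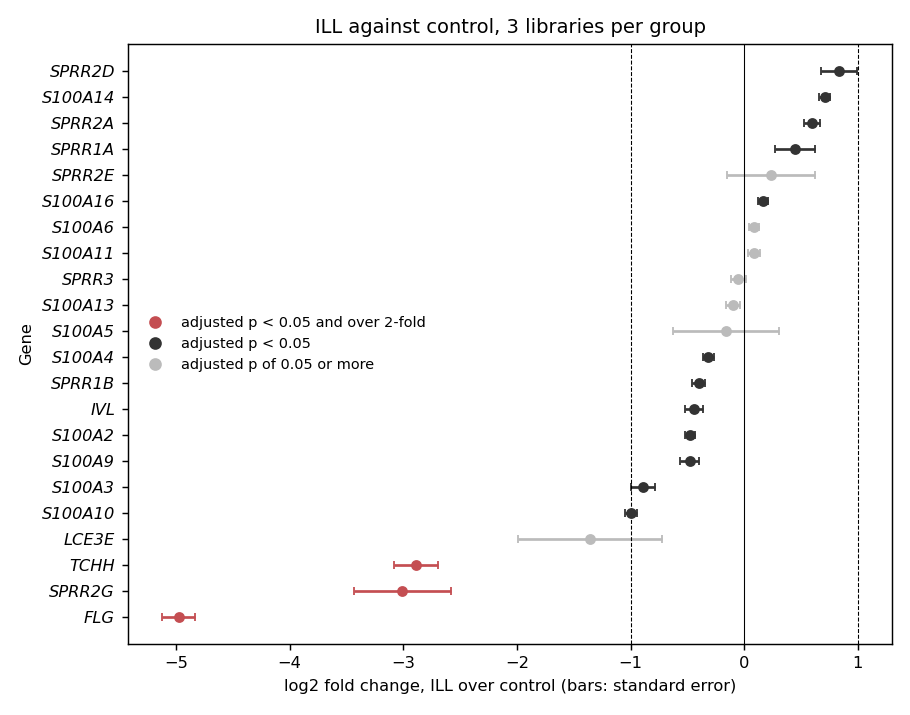
Log2 fold change of ILL over control (x axis) for each of the 22 tested members (y axis), with bars for the standard error of the fit over 3 libraries per group and dashed lines at a 2-fold change. FLG, SPRR2G and TCHH (red) lie past the lower line, S100A10 lies at it, and SPRR2D is the highest at 0.83.

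The 2 fused-type genes with enough counts to test showed the largest falls beside SPRR2G, and stretches of their promoters were alike. Bases upstream of the transcript start were read from RefSeq (GRCh38.p14), in which 50 of the 53 members had an entry. A block of 46 bases had 40 identical bases (87%) between FLG, where it spans 99 to 54 bases before the start, and TCHH, where it spans 119 to 74 bases before it. The block is shown because the 2 genes that fell together share it. It was not compared with the promoters of the other fused-type genes. The block and the shared run given below it were both taken from these 2 promoters. Their presence there was therefore fixed in advance, and a search for the run cannot tie it to the falls. Capitals mark TGAATCA, a form of TGANTCA, the motif that AP-1 dimers of the FOS and JUN families bind.
FLG block: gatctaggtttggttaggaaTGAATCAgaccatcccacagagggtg
TCHH block: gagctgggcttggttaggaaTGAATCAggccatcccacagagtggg
The longest unbroken run common to both was ttggttaggaaTGAATCAg, 19 bases, which was found in 2 of the 35116 RefSeq promoters searched, those of FLG and TCHH.

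The 150 bases before the RefSeq start are given for these genes and for SPRR2G and SPRR2A, a pair from 1 gene family that moved in opposite directions. Capitals mark TGANTCA and the TATA box motif TATAAA on the strand shown. GENCODE places the starts of TCHH and SPRR2A slightly further upstream than RefSeq does, and those of FLG and SPRR2G slightly further downstream.
FLG, chr1:152325240-152325389, minus strand: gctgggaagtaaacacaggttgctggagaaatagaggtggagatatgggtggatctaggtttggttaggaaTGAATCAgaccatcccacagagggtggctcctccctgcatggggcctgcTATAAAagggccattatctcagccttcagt
TCHH, chr1:152115445-152115594, minus strand: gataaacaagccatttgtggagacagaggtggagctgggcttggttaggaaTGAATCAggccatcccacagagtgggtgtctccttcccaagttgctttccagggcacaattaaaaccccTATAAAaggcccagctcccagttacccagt
SPRR2G, chr1:153150891-153151040, minus strand: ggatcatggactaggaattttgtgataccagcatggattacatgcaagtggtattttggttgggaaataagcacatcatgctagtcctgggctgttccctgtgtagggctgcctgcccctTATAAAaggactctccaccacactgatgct
SPRR2A, chr1:153057513-153057662, minus strand: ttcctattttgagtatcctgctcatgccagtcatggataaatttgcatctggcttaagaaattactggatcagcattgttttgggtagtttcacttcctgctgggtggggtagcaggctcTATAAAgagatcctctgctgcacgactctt
All 4 carried TATAAA at 30 bases before the start. The AP-1 motif of SPRR2G (TGAATCA) began 180 bases before the start, further upstream than the stretch printed. In SPRR2A a TGANTCA match likewise lay outside it, 197 bases before the start.

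Across the 250 bases upstream of the start, on either strand, TGANTCA was present in 17 of the 50 members with a RefSeq promoter (34%) and in 10 of the 20 tested members with one (50%). Over all 35116 promoters it was present in 6.57%, and over the 15317 promoters of tested genes in 4.67%. Each member was represented by its first RefSeq entry only, whereas these backgrounds count every entry, and some genes have several. Presence or absence in a member therefore holds for the start used. TATAAA was present in 26 of the 50 members, against 10.7% of all promoters. Among tested members, the AP-1 motif occurred in genes that fell (FLG, TCHH, SPRR2G, IVL, SPRR1B, S100A2 and S100A3), in genes that rose (SPRR1A and SPRR2A) and in SPRR3, which did not pass the test. No TGANTCA lay in this window of S100A4, S100A9 and S100A10, which fell, or of S100A14 and S100A16, which rose. The same held for LCE3E, S100A5, S100A6, S100A11 and S100A13, which did not pass the test. The form TGAATCA, singled out after the FLG and TCHH promoters had been seen, was in 6 of the 7 fused-type promoters, all but that of HRNR, and in 2.53% of all promoters. A motif match is a string of letters and does not show that a factor binds. SPRR2D and SPRR2E are not among the promoters used here.

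FLG encodes profilaggrin, which is cut into filaggrin monomers that aggregate keratin and are later broken down to moisturizing amino acids. It had 1427, 1277 and 1137 counts in control replicates 1 to 3 and 52, 33 and 31 counts in ILL replicates 1 to 3. Every ILL library was far below every control library. The level was 2.81 ± 0.22 FPKM (SD, n = 3) in controls and 0.085 ± 0.025 FPKM (SD, n = 3) with ILL. The log2 fold change was -4.98 ± 0.15 (SE, adjusted p = 1.03e-19), a level 31.5-fold lower, which placed FLG at rank 6 from the lowest log2 fold change among all tested genes. FLG lies at chr1:152302175-152325203 on the minus strand. The antisense gene FLG-AS1 covers 704 of its exonic bases (5.52%), and as no source used here says whether counting used strand, reads of the 2 genes may not be separated over that stretch.

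TCHH encodes trichohyalin, which hardens the inner root sheath of the hair follicle after arginine deimination and crosslinking. Its counts were 341, 311 and 350 in controls and 44, 46 and 39 with ILL. The groups did not overlap, and the replicates within each group lay close together. This was a log2 fold change of -2.89 ± 0.19 (SE, adjusted p = 1.27e-12), with FPKM of 1.35 in controls and 0.173 with ILL. TCHH lies at chr1:152106317-152115454 on the minus strand, 187 kb from FLG.

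Both genes have long transcripts, 12793 bases for FLG and 6985 bases for TCHH as used in the FPKM table. Among the 2661 tested genes at least as long as TCHH, 10.2% were DEGs lower with ILL, and among the 536 at least as long as FLG, 11.6% were, close to the 11.4% of all genes tested. Neither gene shares a 50-base run with a transcript of another gene.

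The other 5 fused-type genes had too few counts to test. Cornulin (CRNN), a squamous epithelial protein of the esophagus and cervix, had 2, 1 and 2 counts in controls and 5, 8 and 4 with ILL. Hornerin (HRNR), a filaggrin-like envelope protein, had 0 counts in each control library and 4, 6 and 0 with ILL. TCHHL1 had 1, 8 and 1 counts in controls and 0 in each ILL library. Repetin (RPTN) had at most 4 counts in any library, and FLG2 had 0 in all 6. A count of 0 allows a level of up to 0.0795 to 0.0875 CPM, depending on the library, if 3 counts are taken as its upper limit; these limits cover counting error only. The summed counts of the 7 fused-type genes, nearly all of them from FLG and TCHH, were 1772, 1598 and 1490 in controls and 109, 94 and 74 with ILL.

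The small proline-rich genes moved in different directions. SPRR proteins are short crosslinking bridges of the envelope, and the SPRR2 genes are near copies of each other. SPRR2G had 79, 91 and 109 counts in controls and 18, 10 and 5 with ILL, and all ILL libraries were below all controls. Its log2 fold change was -3.01 ± 0.43 (SE, adjusted p = 9.4e-07), from 2.41 FPKM to 0.284 FPKM. SPRR2A, in contrast, had 1254, 1274 and 1241 counts in controls and 1707, 1798 and 1942 with ILL, an increase without overlap of 0.60 ± 0.07 on the log2 scale (SE, adjusted p = 5.89e-08). SPRR2D also rose, from 341, 214 and 200 counts to 358, 413 and 504. Its log2 fold change was 0.83 ± 0.16 (SE, adjusted p = 4.89e-05), and the lowest ILL library lay just above the highest control. SPRR2E had 39, 34 and 41 counts in controls and 40, 57 and 31 with ILL, with overlapping groups and a log2 fold change of 0.23 (adjusted p = 0.601).

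SPRR2A and SPRR2G lie 92 kb apart, and their upstream 250 bases were identical at 63.2% of positions, whereas those of SPRR2A and SPRR2F were identical at 86.4%. Of the 50-base runs in the transcripts, 8.29% of those of SPRR2G, 32.7% of those of SPRR2A, 23.4% of those of SPRR2E and 19.3% of those of SPRR2D also occurred in another SPRR2 gene. The assignment of reads among SPRR2 genes is therefore uncertain, least so for SPRR2G.

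SPRR1B was by far the most abundant SPRR gene per length, at 550 ± 15.3 FPKM (SD, n = 3) in controls. It fell from 12623, 12045 and 11649 counts to 7823, 8879 and 9586 counts, a log2 fold change of -0.40 ± 0.06 (SE, adjusted p = 2.07e-06) with no overlap between groups. SPRR1A, its neighbour in sequence, shares 11.3% of its own 50-base runs with SPRR1B, which are 4.38% of the SPRR1B runs. The assignment of reads to SPRR1A, the far lower gene, is therefore uncertain. SPRR1A rose from 148, 181 and 183 counts to 208, 248 and 214 counts. The log2 fold change of SPRR1A was 0.45 ± 0.18 (SE, adjusted p = 0.025), and it lost significance without control replicate 1 (0.31, adjusted p = 0.144) and without ILL replicate 2 (0.36, adjusted p = 0.113), and also with libraries scaled by their totals (0.38, adjusted p = 0.0552) and in limma on log2 of FPKM plus 1 with no filter (0.34, adjusted p = 0.0525). SPRR3, the SPRR gene of esophageal and oral epithelium, had 2787, 2647 and 2492 counts in controls and 2244, 2325 and 2741 with ILL, with overlapping groups and a log2 fold change of -0.05 (adjusted p = 0.516). The summed FPKM of SPRR genes ranged from 687 to 722 in controls and from 515 to 621 with ILL. SPRR2B, SPRR2F and SPRR4 had at most 8, 5 and 4 counts in any library.

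IVL, the scaffold on which the envelope is assembled and the best known marker of early terminal differentiation, fell by less than the fused-type genes. Its counts were 1063, 972 and 1012 in controls and 740, 675 and 726 with ILL, without overlap. This amounted to a log2 fold change of -0.44 ± 0.08 (SE, adjusted p = 2.93e-05), from 13.3 FPKM to 9.30 FPKM. Loricrin (LORICRIN), the main protein of the epidermal envelope, had 0 counts in all libraries.

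Among the late envelope genes, 13 of the 18 LCE genes had 0 counts in every library, and LCE3E alone could be tested. LCE3E had 12, 30 and 17 counts in controls and 13, 5 and 4 with ILL. The groups overlapped, since ILL replicate 1 lay above control replicate 1. Its log2 fold change was -1.36 ± 0.63 (SE, adjusted p = 0.0573), and it passed the test without control replicate 1 (-1.65, adjusted p = 0.0374) without ILL replicate 1 (-2.04, adjusted p = 0.0278) or with libraries scaled by their totals (-1.42, adjusted p = 0.0464). LCE3D, with which LCE3E shares 14.1% of its 50-base runs, had 12, 6 and 6 counts in controls and 5, 8 and 7 with ILL. LCE1A and LCE5A reached 4 counts and LCE1E 2 counts in any library.

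The S100A family included some of the most abundant genes per length in these cells. Its summed level was 11028 to 11516 FPKM in controls and 9692 to 10371 FPKM with ILL, or 2.43% to 2.52% of all FPKM in controls and 2.21% to 2.33% with ILL. Its share of counts, which are not divided by length, was lower, 0.725% to 0.754% in controls and 0.633% to 0.675% with ILL. The groups did not overlap in either share. S100A10 was lower with ILL, as was the sum, while the 2 most abundant genes did not pass the test. S100A6 (calcyclin), at 3312 ± 46.4 FPKM (SD, n = 3) in controls and 3356 ± 103 FPKM with ILL, ranked 10 among all genes in controls and 11 with ILL. S100A11 (calgizzarin), at 3065 ± 138 FPKM in controls and 3099 ± 232 FPKM with ILL, ranked 11 and 13. In controls the 3 libraries of S100A6 lay above those of S100A11, whereas with ILL their ranges overlapped.

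**Figure D2:**
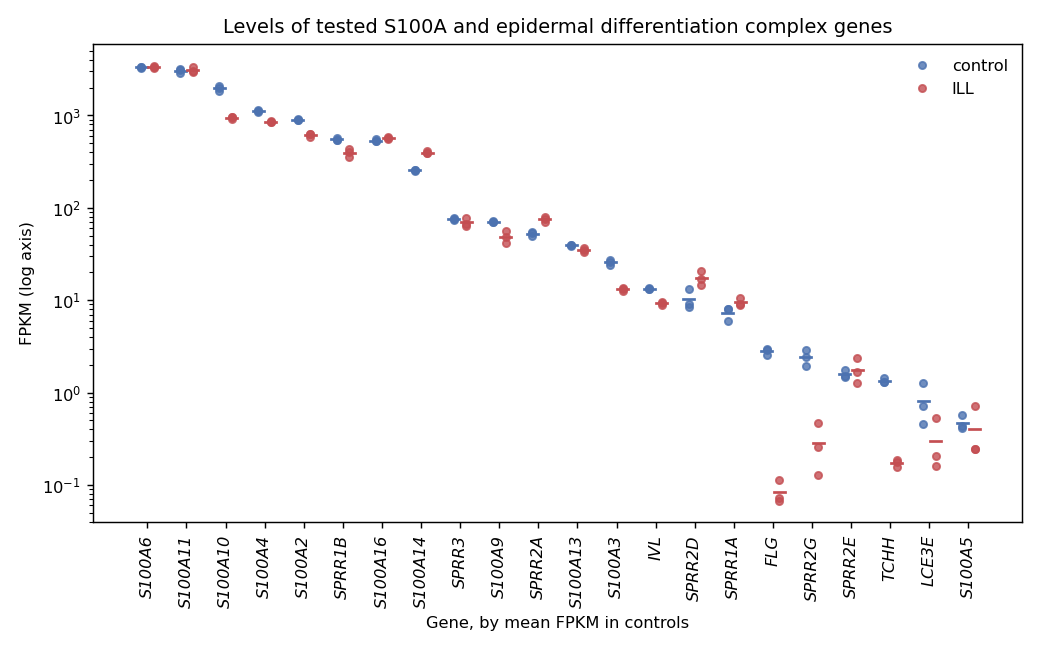
FPKM on a log axis for each of the 22 tested members, ordered by mean FPKM in controls, with a point for each of 3 control (blue) and 3 ILL (red) libraries and a bar at the group mean. S100A6 and S100A11 lie above all other members in every library, and the fused-type genes FLG and TCHH lie under 3 FPKM in controls and under 0.2 FPKM with ILL.

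S100A10 (p11) showed the largest change in level among the abundant S100A genes. S100A10 differs from its relatives in that its calcium sites are inactive, and it forms a heterotetramer with annexin A2 that binds plasminogen and tissue plasminogen activator at the cell surface. It had 50812, 48343 and 42483 counts in controls and 21905, 22944 and 22974 with ILL, with no overlap. The level fell from 1977 ± 141 FPKM (SD, n = 3) to 945 ± 25.7 FPKM (SD, n = 3). The log2 fold change was -0.995 ± 0.05 (SE, adjusted p = 1.11e-14), which lay just short of the 2-fold limit for a DEG. Its share of all S100A FPKM was 16.5% to 18.3% in controls and 9.2% to 9.9% with ILL.

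The RNA of its partner did not move with it. ANXA2 had 94048, 83761 and 95864 counts in controls and 85435, 87249 and 90027 with ILL, with overlapping groups and a log2 fold change of 0.01 (adjusted p = 0.915). The ratio of S100A10 FPKM to ANXA2 FPKM was 4.209, 4.496 and 3.452 in controls and 1.997, 2.049 and 1.988 with ILL. This is a mean of 4.05 ± 0.54 (SD, n = 3) against 2.01 ± 0.03 (SD, n = 3), and the two-sided exact permutation test gave p = 0.1, the smallest value that 3 libraries against 3 can give.

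S100A14, an S100 protein of squamous and glandular epithelia, moved the other way. It rose from 11117, 9976 and 10246 counts to 16036, 15873 and 17076 counts, without overlap, a log2 fold change of 0.71 ± 0.05 (SE, adjusted p = 2.14e-12). Its FPKM rose from 255 to 397, and its share of S100A FPKM from between 2.19% and 2.32% to between 3.986% and 4.003%. S100A16, which lies 1.11 kb from S100A14 and whose protein can pair with it, had 32364, 29309 and 31280 counts in controls and 33345, 32085 and 34226 with ILL. The log2 fold change of S100A16 was 0.17 ± 0.05 (SE, adjusted p = 0.00283), and it did not pass the test when libraries were scaled by their totals alone (0.10, adjusted p = 0.0616) or in the 3 limma settings.

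**Figure D3:**
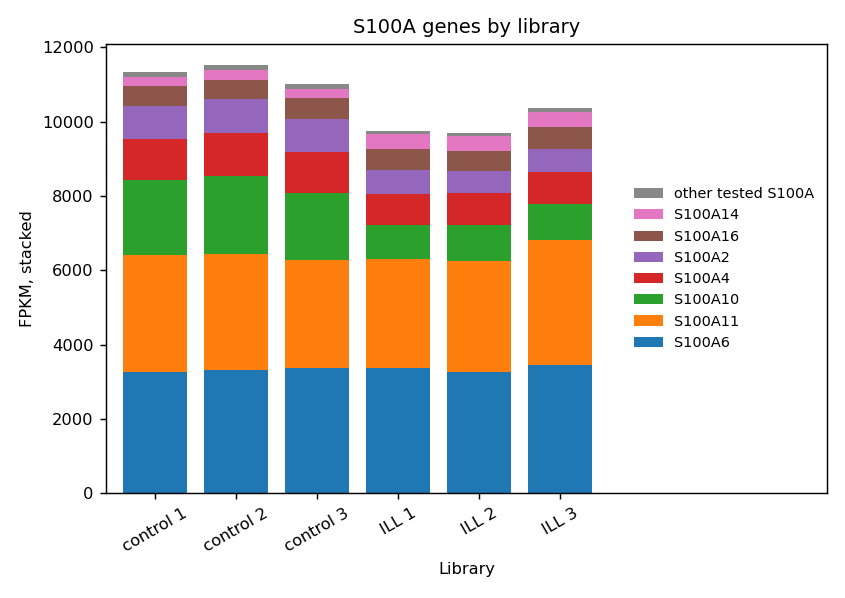
FPKM of the tested S100A genes stacked for each of the 6 libraries (x axis), with the 7 most abundant genes in color and the other tested genes in gray. The S100A10 segment is 1824 to 2102 FPKM high in controls and 916 to 964 FPKM high with ILL, while the S100A14 segment grows from at most 256 to at least 388 FPKM.

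S100A2 and S100A4, the next most abundant genes, both fell without overlap. S100A2, a nuclear S100 protein of basal epithelial cells and a target of p63, had 36879, 34192 and 34087 counts in controls and 24744, 22936 and 24625 with ILL, a log2 fold change of -0.47 ± 0.05 (SE, adjusted p = 1.77e-09). S100A4 (metastasin), which binds non-muscle myosin and is tied to motility, had 23648, 22120 and 21454 counts in controls and 17189, 17061 and 17392 with ILL, a log2 fold change of -0.31 ± 0.05 (SE, adjusted p = 1.55e-06). S100A3, known as a substrate of peptidylarginine deiminase in the hair cuticle, fell from 671, 654 and 703 counts to 350, 334 and 361 counts. Its log2 fold change of -0.89 ± 0.11 (SE, adjusted p = 4.65e-08) was the largest fall in the family after S100A10, at 25.7 FPKM in controls and 13.2 FPKM with ILL.

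S100A9, a subunit of calprotectin, had 1522, 1401 and 1414 counts in controls and 983, 841 and 1151 with ILL. Counts in each ILL library were below those of each control, with a log2 fold change of -0.48 ± 0.09 (SE, adjusted p = 2.34e-05). Its usual partner S100A8 was close to absent, at 1, 0 and 8 counts in controls and 4, 0 and 0 with ILL. Since both are also neutrophil and monocyte genes, myeloid transcripts were counted beside them. Of 7 myeloid markers, 3 had enough counts to test and 1, CD68, a lysosomal protein also found outside myeloid cells, was a DEG, and the summed FPKM of the 7 was 22.8 to 25.4 in controls and 65.5 to 67.9 with ILL, nearly all of it from CD68, at 22.7 FPKM in controls and 64.8 FPKM with ILL. ILL replicate 1 alone held 45 counts of CSF3R, 7 of FCN1, 16 of ITGAM and 9 of PTPRC, where no other library had more than 6 of any of these genes. Without ILL replicate 1 the S100A9 log2 fold change was -0.47 (adjusted p = 0.000316).

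The remaining S100A genes did not pass the test as designed, although some did under an alternative. S100A13, which takes part in the release of fibroblast growth factor 1, had 2859, 2541 and 2565 counts in controls and 2363, 2249 and 2498 with ILL, a log2 fold change of -0.10 (adjusted p = 0.145). Scaled by library totals alone, S100A13 fell by 0.17 (adjusted p = 0.0152), it also passed in the 3 limma settings, and 18.8% of its 50-base runs also occur in the transcript AL162258.1. S100A6 had 53492, 49345 and 50561 counts in controls and 51992, 50061 and 53739 with ILL, a log2 fold change of 0.09 (adjusted p = 0.0827), but it passed with DESeq2 (0.10, adjusted p = 0.0281) and without ILL replicate 2 (0.11, adjusted p = 0.034). S100A11 had 67145, 60405 and 56791 counts in controls and 58796, 59993 and 67848 with ILL, also 0.09 (adjusted p = 0.145), and passed without ILL replicate 1 (0.13, adjusted p = 0.0412). S100A5, a low gene at 34, 29 and 41 counts in controls, had 18, 18 and 53 counts with ILL, a log2 fold change of -0.16 (adjusted p = 0.768) in which ILL replicate 3 stood above all controls. S100A1 reached 11 counts in a library, S100A7 (psoriasin) and S100A12 reached 1, and S100A7A had 0 in all.

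Neighbouring members had both like and unlike values, and whether position goes with direction was not tested. TCHH, FLG, LCE3E and IVL follow each other among tested members, at -2.89, -4.98, -1.36 and -0.44, though LCE3E did not pass the test. SPRR2D, SPRR2A and SPRR2E follow each other at 0.83, 0.60 and 0.23, though SPRR2E did not pass. S100A10 lies 38.1 kb from S100A11, which did not pass the test, and S100A14, the S100A gene with the highest log2 fold change, lies at the same end as S100A3, the second lowest of the family. SPRR2G lies 824 kb from FLG and has SPRR2E and SPRR2A, with log2 fold changes of 0.23 and 0.60, as its nearest tested neighbours on that side. S100A3 (153547329 to 153549372) lies wholly within the span of S100A4 (153543613 to 153550136) in the annotation, and both fell. Between the outermost members the table held 8 other genes, of which 3 had 0 counts in every library and 1 could be tested. This was CRCT1, a cysteine-rich gene next to the LCE cluster, which rose from 20, 6 and 31 counts to 40, 55 and 61 counts, a log2 fold change of 1.51 ± 0.48 (SE, adjusted p = 0.00637) at low counts.

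**Figure D4:**
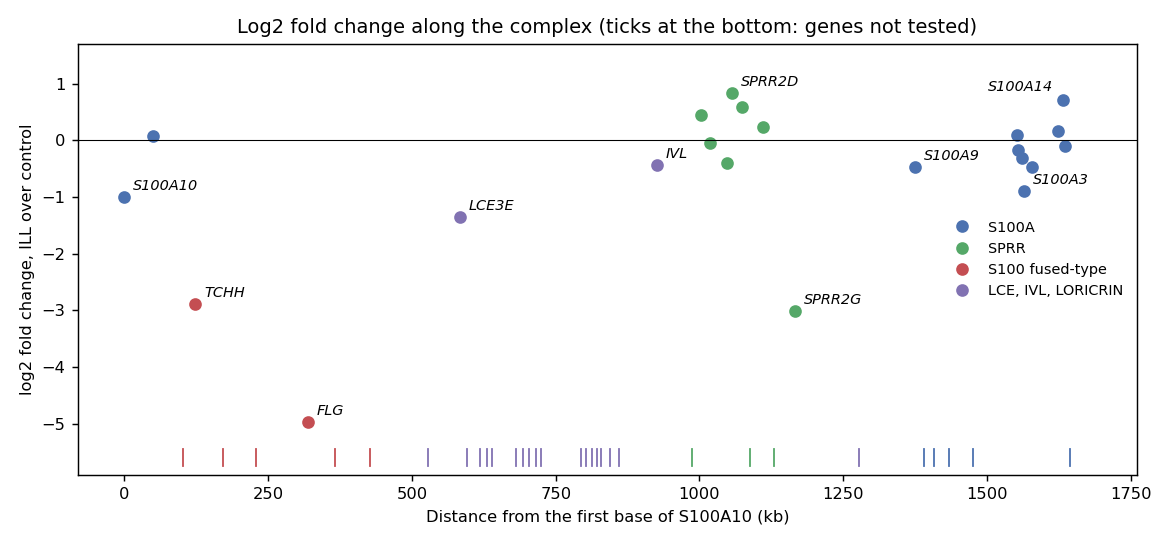
Log2 fold change of ILL over control against distance from the first base of S100A10 in kb, for the 22 tested members in color by family, with ticks at the bottom for the 31 members not tested. FLG, TCHH and SPRR2G lie at -4.98, -2.89 and -3.01, apart from neighbours that lie between -1.36 and 0.83.

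Over the 17 of 22 tested members whose groups did not overlap in normalized counts, 11 had all ILL libraries below all controls and 6 had them above. Among all genes tested, the groups did not overlap in 75.4%, and the ILL libraries were below all controls in 38.0% of all genes tested and above them in 37.5%.

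The label of the cells was set against markers. The cholangiocyte markers KRT7, KRT8, KRT18, KRT19, EPCAM and SOX9 were all well expressed, with a summed level of 5027 to 5148 FPKM in controls and 4381 to 4613 FPKM with ILL. Of 7 squamous markers, 4 could be tested, and KRT1 and DSG1 had 0 counts in all libraries. KRT10, another keratin of the list, was present, at 681, 620 and 593 counts in controls and 494, 474 and 509 with ILL. Its log2 fold change was -0.29 (adjusted p = 0.00982). KRT5, a keratin of basal cells, was high. Its counts of 34871, 32779 and 35182 in controls fell to 16066, 17540 and 16732 with ILL, a log2 fold change of -0.97 ± 0.05 (SE, adjusted p = 2.22e-14). The summed level of the squamous markers was 434.8 to 475.2 FPKM in controls and 224.4 to 242.4 FPKM with ILL, most of it from KRT5. Of the 4 tested squamous markers, 3 fell as did FLG, TCHH, SPRR2G and IVL, whereas TP63 rose by 0.79 (adjusted p = 2.79e-11), and the part of these markers in these results was not tested. Fibroblast markers summed to at most 3.73 FPKM in any library. Total counts ranged from 34282764 to 37758569 per library.

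Genes that work with these members were followed in hand-written lists, whose counts are set beside the 23.9% of all genes tested that were DEGs. The lists were chosen with earlier results of these data known, so a share above 23.9% may come from that choice. Among cornified envelope proteins and crosslinking enzymes outside the member set, 9 of 16 tested genes were DEGs (56.2%), 7 higher and 2 lower, with a median log2 fold change of 0.71. The 2 lower DEGs were both transglutaminases, while by the adjusted p alone 11 of the 16 genes rose and 3 fell. TGM1, which crosslinks the envelope in keratinocytes, had 89, 78 and 68 counts in controls and 35, 26 and 34 with ILL (log2 fold change -1.24, adjusted p = 0.00227). TGM2, the widely expressed tissue transglutaminase, fell from 156951, 144735 and 148111 counts to 44684, 46008 and 46596 counts, a log2 fold change of -1.65 (adjusted p = 2.46e-20). Higher with ILL were the desmosomal cadherin DSG3 (3.14), the protease inhibitor cystatin A, CSTA (1.78), and the envelope scaffold periplakin, PPL (1.46).

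Of the enzymes that process filaggrin or build the lipid barrier, 10 of 16 tested were DEGs (62.5%), 7 higher and 3 lower, with a median log2 fold change of 0.78. PADI3, the deiminase whose substrates include filaggrin, trichohyalin and S100A3, had 657, 634 and 576 counts in controls and 92, 66 and 86 with ILL. All ILL libraries lay below all controls, with a log2 fold change of -2.87 ± 0.14 (SE, adjusted p = 5.21e-15), near that of TCHH. PADI1, by comparison, did not pass the test (0.06, adjusted p = 0.355). BLMH, the hydrolase that breaks deiminated filaggrin down to amino acids, fell by 1.69 on the log2 scale, and the cathepsin CTSV fell by 1.49. The lipoxygenases ALOX12B and ALOXE3 of the barrier lipid pathway rose by 2.83 and 2.35, and PRSS8, a membrane serine protease that acts upstream of filaggrin processing, rose by 2.01. CASP14, which cleaves filaggrin in the epidermis, had at most 1 count in any library.

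Transcription factors of epidermal differentiation moved mostly upward. Of 23 tested, 13 were DEGs (56.5%), 13 higher and 0 lower, with a median log2 fold change of 1.44, and DESeq2 likewise called 13 higher and 0 lower, while 3 were lower at an unadjusted p under 0.05 in edgeR's test. POU2F3, a POU factor of suprabasal cells, rose from 643, 522 and 546 counts to 6859, 7081 and 7049 counts, a log2 fold change of 3.68 (adjusted p = 1.38e-23). PRDM1 (3.49) and GRHL3 (3.003), both needed in the last steps of keratinocyte differentiation, also rose. TP63, the master factor of stratified epithelium, rose from 1804, 1617 and 1697 counts to 2859, 2898 and 2687 counts, a log2 fold change of 0.79 (adjusted p = 2.79e-11) under the 2-fold limit. GRHL2, OVOL2 and NOTCH1 fell by 0.42, 0.56 and 0.66. By the adjusted p alone, 19 of the 23 factors rose and 3 fell.

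AP-1 subunits, whose motif lies in 10 of the 20 tested member promoters, held a DEG in each direction. Of 10 tested, 2 were DEGs (20.0%), 1 higher and 1 lower, with a median log2 fold change of 0.69. FOSL1 (FRA-1), an AP-1 subunit of proliferating and invasive epithelial cells, had 8273, 7693 and 8022 counts in controls and 3415, 3379 and 3444 with ILL, a log2 fold change of -1.16 ± 0.05 (SE, adjusted p = 5.11e-16). ATF3, a stress-induced subunit, rose from 87, 94 and 87 counts to 941, 1020 and 789 counts, a log2 fold change of 3.42 (adjusted p = 3.16e-17). By the adjusted p alone, 7 of the 10 rose and 1 fell.

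Among S100 binding partners, receptors and S100 genes elsewhere in the genome, 5 of 16 tested were DEGs (31.2%), 3 higher and 2 lower, with a median log2 fold change of 0.13. One of the 3 higher, TLR4, had 9, 19 and 8 counts in controls and 34, 17 and 30 with ILL, with overlapping groups (1.22, adjusted p = 0.0443). With DESeq2 or with the replicate block, 4 genes of this list were called. S100P, an S100 gene outside chromosome 1 that is known from biliary and pancreatic cancers, rose from 2981, 2875 and 2870 counts to 21079, 19881 and 21026 counts. Its log2 fold change was 2.89 ± 0.05 (SE, adjusted p = 2.4e-23), and at 1230 FPKM with ILL it lay above S100A10 (945 FPKM) and S100A4 (859 FPKM) in the same libraries, whereas in controls, at 174 FPKM, it lay below both. MYH9, the non-muscle myosin chain to which S100A4 binds, rose by 1.37 on the log2 scale, while CACYBP, the calcyclin-binding protein and partner of S100A6, and the immunophilin FKBP4 fell by 1.61 and 1.35. S100B, S100G and S100Z had 0 counts in all libraries.

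**Figure D5:**
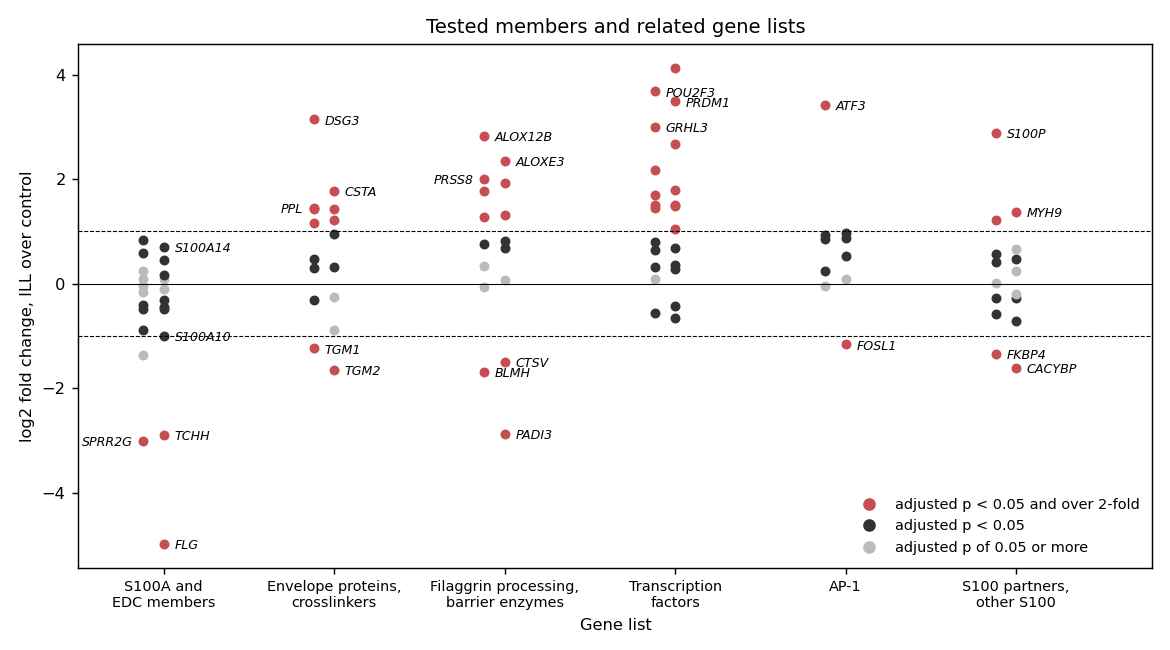
Log2 fold change of ILL over control (y axis) for the tested members and for the tested genes of 5 related lists (x axis), 1 point per gene, with red for DEGs, black for other genes at an adjusted p under 0.05 and dashed lines at a 2-fold change. The 13 DEGs among the transcription factors lie above 1, while the 3 DEGs among the members lie at -2.89 and below.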

How the data were processed

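RNA-seq was done on 6 libraries of HCCC9810 cells, 3 with ILL and 3 with vehicle, grouped by the sample labels. The authors deposited raw counts per gene symbol, without normalization, and FPKM values, which are the counts divided by gene length and library total. The submitters' processing notes name GRCh38 and DESeq2, while the aligner, the counting program and the annotation are not given in the sources used here. The members and lists were chosen with earlier results of these data known.

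Genes were filtered with filterByExpr and normalized by TMM in edgeR 4.0.16 (R 4.3.3), and ILL was tested against control with the quasi-likelihood test, fitted on the whole table with Benjamini-Hochberg adjustment over 13066 genes. The limits for DEGs (adjusted p 0.05, fold change 2 or 0.5) are those of the study's methods. The biological coefficient of variation was 0.0717, and total counts of 34282764 to 37758569 per library leave the replicate spread as the main error except at low counts. Replicates differed beyond counting noise (chi-square per degree of freedom 5.09 to 11.5 for pairs within a group). They were therefore not copies of each other, and each counted as 1 replicate. This does not show that they came from separate cultures. The fit was tested on simulated data.

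All tested members are named, untested members by their highest count, and from each related list at most 3 DEGs at each end whose groups did not overlap and whose mean reached 1 CPM, together with TGM1, ANXA2 and TP63. KRT5, KRT10, CASP14, PADI1, GRHL2, OVOL2, NOTCH1 and TLR4 were named after their values were seen, as were the forms of the promoter motifs other than TGANTCA. DSG1, DSC1, ANXA1 and TP63 each stand in 2 lists. Levels were compared between genes by FPKM. Positions come from GENCODE v29 and promoters from RefSeq (GRCh38.p14). The alternatives were DESeq2 size factors, library totals, DESeq2 1.42.0, no low-count filter, a stricter filter (10 counts in every library), the replicate number as a block, limma 3.58.1 on log2 of FPKM plus 1 or plus 0.1, no fold limit, and each library left out in turn. The result of 1 marker gene is not reported here.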

Additional observations from a re-analysis of the deposited data

How the results depend on the processing

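FLG and SPRR2G were called lower under each alternative in which they could be tested, and TCHH under all but the limma settings, of which 2 did not test it and the third gave -0.999 (adjusted p = 3.33e-06). SPRR2G drops out with at least 10 counts in every library, which left 2 members called. With each library left out in turn, the log2 fold change ranged from -5.24 to -4.84 for FLG, from -2.95 to -2.82 for TCHH and from -3.55 to -2.66 for SPRR2G. On log2 of FPKM plus 1, limma gave -1.81 for FLG, -1.41 for SPRR2G and -1.06 for S100A10, a scale that shrinks low genes. Members called lower numbered 5 with library totals alone (adding S100A10 at -1.06 and LCE3E at -1.42), 5 with no filter on low counts (adding S100A10 and TCHHL1), 10 without the fold limit, and 3 to 4 with a library left out. Members called higher numbered 1 with no filter (HRNR), 5 without the fold limit, and 0 to 1 with a library left out (SPRR2D, at 1.05 without control replicate 1). S100A10 passed 2-fold without control replicate 3 (-1.05), ILL replicate 2 (-1.01) or ILL replicate 3 (-1.003). Without the fold limit, the envelope list had 14 genes called, the transcription factors 22, the AP-1 subunits 8 and the S100 partners 12. CRCT1 drops out untested with at least 10 counts in every library. It was tested but not called (0 of the neighbours) in limma on FPKM plus 1. The sign turned, never past the threshold, for S100A5 (-0.87 to 0.10 with a library left out), SPRR2E (-0.0405 to 0.42) and SPRR3 (-0.14 to 0.00938). For 13 of the 22 tested members, the direction and the side of the adjusted p threshold held in all alternatives, while the 2-fold limit was crossed as given above. Of all DEGs, 52.4% were higher, against 42.0% to 42.3% in limma and 47.4% with library totals, which moved the median of all genes to -0.07. Replicate numbers did not pair the libraries (correlations of deviations 0.0107, -0.0218 and -0.0179), and with the replicate block 0 members were called higher and 3 lower. Causes of these shifts were not tested.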
